A study of Homo sapiens with 23 samples.

Results

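The 32 genes described here encode the enzymes and carriers of fatty acid beta-oxidation. They were chosen by gene symbol, with earlier results of these data known, from the 60564 genes listed for each library. All 32 were found in all 23 libraries. By role they comprise 2 genes of carnitine-dependent entry (CPT2 and SLC25A20), 8 acyl-CoA dehydrogenases (ACADVL, ACADM, ACADS, ACADSB, ACAD8, ACAD9, ACAD10 and ACAD11) and 6 genes of the later mitochondrial steps (HADHA, HADHB, HADH, ECHS1, HSD17B10 and ACAA2). A further 5 act on double bonds (ECI1, ECI2, ECH1, DECR1 and DECR2), 5 belong to the peroxisomal cycle (ACOX2, ACOX3, EHHADH, HSD17B4 and ACAA1), 3 pass on electrons (ETFA, ETFB and ETFDH) and 3 are acyl-CoA thioesterases (ACOT1, ACOT2 and ACOT8).

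Expression was measured by mRNA-seq in Caco-2 and HepG2 cells on a microfluidic chip that joins a gut and a liver chamber, to compare how free fatty acids (FFAs) and a neighbouring organ model act on each line. Caco-2 is an established line from a human colorectal adenocarcinoma, used as a model of intestinal epithelium, and HepG2 is an established line from a human hepatocellular carcinoma, used as a model of liver. Each line was kept alone (mono-culture) or on a chip shared with the other line (co-culture), without FFAs (control) or with 1 mM FFAs, a mixture of palmitic acid and oleic acid at 1 part to 2. Per the labels, cells were collected after 1 day, and Caco-2 co-culture control had 2 libraries while the other 7 groups had 3 each. The fatty acids came from stocks in dimethyl sulfoxide, and the sources used here do not say whether the controls received that solvent. The labels and the study's methods also differ on the serum in the medium. Since every library of an organ model came from 1 tumour-derived line, a difference between Caco-2 and HepG2 is a difference between these lines and not between gut and liver.

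Beta-oxidation shortens a fatty acyl-CoA in repeated rounds of dehydrogenation, hydration, renewed dehydrogenation and thiolytic cleavage, and each round releases acetyl-CoA. Long chains enter the mitochondrion as carnitine esters, whereas very long and branched chains and the side chains of bile acid precursors are first shortened in the peroxisome. The liver uses the pathway during fasting to feed ketone body synthesis, absorptive enterocytes also carry it, and many of its genes are known targets of the fatty acid receptor PPARA.

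Values are TPM (transcripts scaled to a common total per library), which are scaled for gene length and so allow levels to be compared between genes within a library. Differences are given on the log2(TPM + 1) scale. A gene was called at an adjusted p under 0.05, from limma with Benjamini-Hochberg adjustment over all genes that averaged 1 TPM or more in some group. All 32 members passed that filter in every fit. The libraries listed 19259 to 23689 genes above 0 TPM. The 7 hepatic markers summed to 38659 to 57609 TPM in HepG2 and 3197 to 5029 TPM in Caco-2, although VTN was higher in Caco-2. Without VIL1, which HepG2 also expressed at 153 to 244 TPM, median 203 TPM, the intestinal markers summed to 454 to 606 TPM in Caco-2 and 0.16 to 3.45 TPM in HepG2. Among the defining markers, CDX1 was at or near 0 in Caco-2, at most 0.18 TPM.

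As a group the members were abundant in both lines. Their TPM summed to 5596 to 6489 in Caco-2 and 5284 to 7020 in HepG2, or 0.528 to 0.702% of all TPM over the 23 libraries, and these ranges overlapped. Of the 32 genes, ECHS1, the short-chain enoyl-CoA hydratase, was the most abundant in Caco-2 at 814 to 1043 TPM (median 951), and ETFB, a subunit of the electron transfer flavoprotein, was the most abundant in HepG2 at 1035 to 1190.2 TPM (median 1155). The least abundant were ACOX2 in Caco-2, a peroxisomal oxidase of branched chains and bile acid precursors, at 8.41 to 20.2 TPM (median 15.04), and ETFDH in HepG2, which passes electrons from the flavoprotein to ubiquinone, at 13.5 to 33.7 TPM (median 19.7). No member was listed at 0 in any library. The spread between libraries of a line, as a coefficient of variation, had a median over the members of 9.84% in Caco-2 and 16.6% in HepG2. It ran from 4.87% for ETFA to 26.5% for ACOX2 in Caco-2, and from 5.08% for ETFB to 30.9% for HSD17B4 in HepG2.

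**Figure D1:**
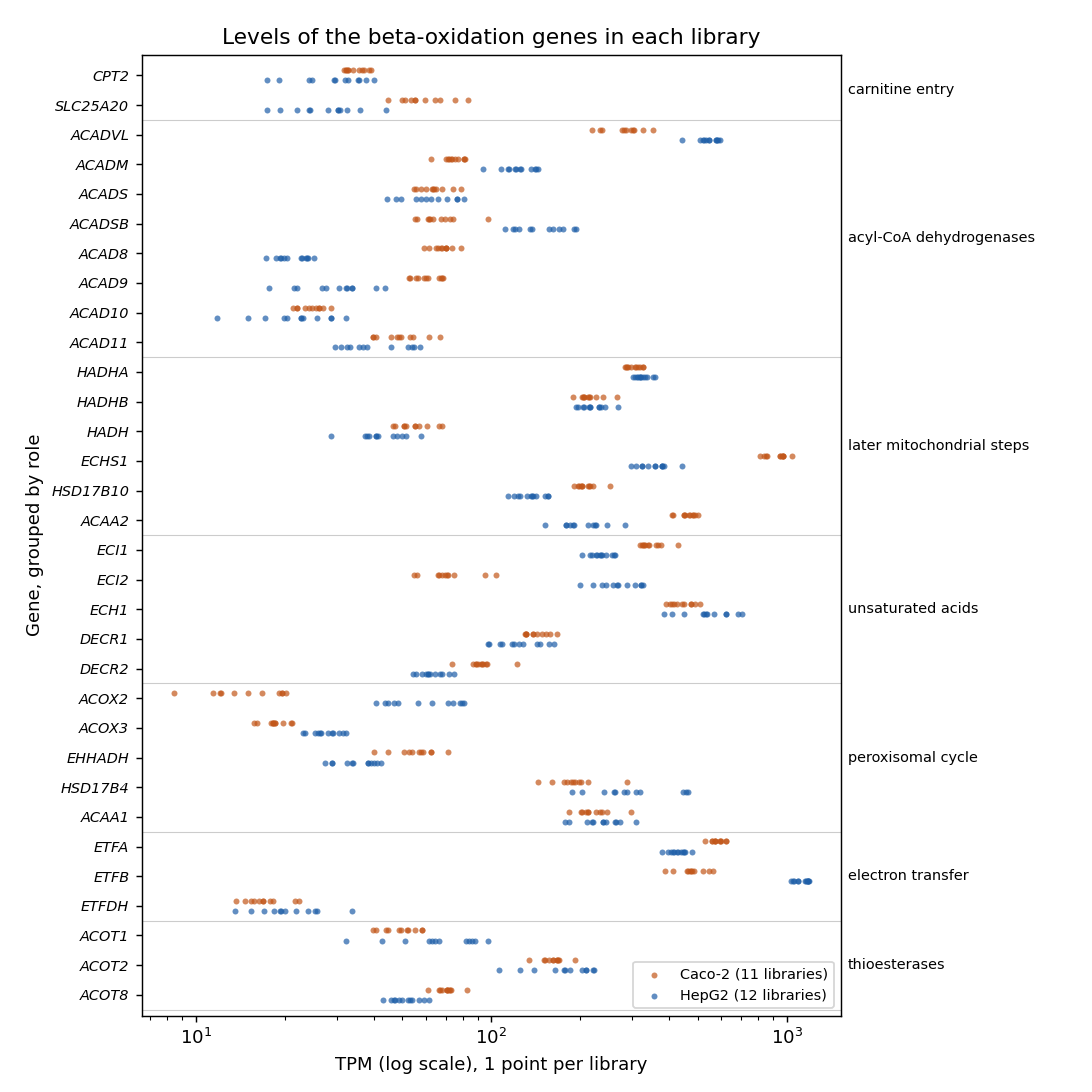
TPM of the 32 beta-oxidation genes on a log scale, 1 point per library, with 11 Caco-2 libraries in orange and 12 HepG2 libraries in blue, and genes grouped by role. ECI2, ACOX2 and ETFB lie higher in every HepG2 library than in any Caco-2 library, and ACAD8, ECHS1 and ACAA2 lie lower.

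The lines differed in the make-up of the pathway and not in a shared direction. Averaged over the 4 conditions, 12 members were higher in HepG2 and 13 were higher in Caco-2, and 7 did not pass the test. Of all 16495 genes tested, 79.0% were called in this comparison (29.2% higher and 49.8% lower in HepG2), so the share of members called is near that of genes in general. The median difference, HepG2 minus Caco-2, was -0.11 over the members and -0.24 over all genes. The values of the lines did not overlap for 7 members that were higher in HepG2, against 14.1% of all genes, and for 8 that were lower, against 28.6%. In bulk RNA, fewer cells of a type and less RNA per cell cannot be told apart. The median difference of all genes depended on the scaling and came to -0.049 after median-of-ratios scaling and 0.0036 after quantile normalization, and that of the members turned to 0.11 and 0.13. It was also above 0 in mono-culture, at 0.079 in control and 0.10 with FFAs. With these scalings the share of gene calls that were higher in HepG2 moved from 36.9% to 47.5% and 50%. Under both scalings 12 members kept the call of higher in HepG2 and 11 kept that of higher in Caco-2, while HADH and DECR1 lost theirs. HADHB, ACAA1 and ACOT2 gained a call of higher in HepG2 under both and ACADS under median-of-ratios scaling, so that 16 and 15 members were called higher in HepG2. Calls in all 4 conditions, each taken alone, were made for 7 members higher in HepG2 and 11 higher in Caco-2.

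**Figure D2:**
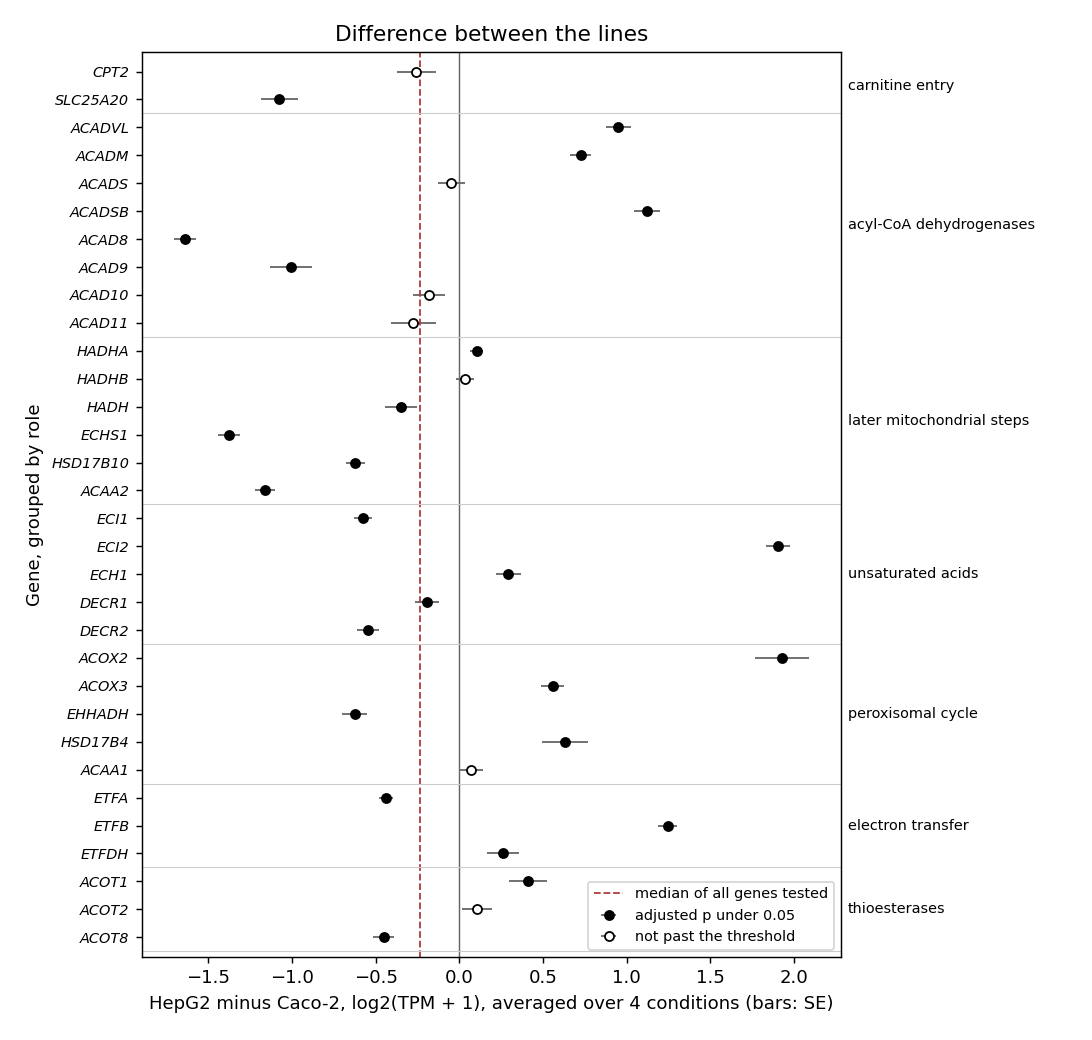
Difference between the lines in log2(TPM + 1), HepG2 minus Caco-2, averaged over the 4 conditions, for each member, with bars for the SE and filled points for an adjusted p under 0.05. Members lie on both sides of the dashed line, the median of all genes tested at -0.24, from ACAD8 at -1.64 to ACOX2 at 1.93. The direction of ACADS turns and the calls of HADH and DECR1 are lost under the other scalings, and HADHB, ACAA1 and ACOT2 gain a call.

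Carnitine-dependent entry was represented by 2 genes. SLC25A20, the carrier that exchanges acylcarnitines for carnitine across the inner mitochondrial membrane, was at 44.6 to 83.4 TPM (median 55.3) in Caco-2 and 17.4 to 43.99 TPM (median 29.1) in HepG2. Every HepG2 library lay below every Caco-2 library, and the difference was -1.07 (SE 0.11, adjusted p = 2.83e-08). CPT2, which turns the imported acylcarnitine back into acyl-CoA, was at 31.7 to 39.3 TPM (median 33.99) in Caco-2 and 17.4 to 40 TPM (median 30.8) in HepG2, with a difference of -0.26 (SE 0.12, adjusted p = 0.0502) that did not pass the test.

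The acyl-CoA dehydrogenases, which open each round according to chain length, were divided between the lines. ACADVL, the very-long-chain enzyme, was at 219 to 351 TPM (median 286) in Caco-2 and 441 to 595 TPM (median 547) in HepG2, a difference of 0.95 (SE 0.075, adjusted p = 4.90e-10). ACADM, the medium-chain enzyme, was at 62.4 to 81.7 TPM (median 73.7) and 93.98 to 144 TPM (median 123), a difference of 0.72 (SE 0.064, adjusted p = 2.80e-09). For both genes every HepG2 library was above every Caco-2 library. ACADSB, which acts on short branched acyl-CoA from isoleucine, was also higher in HepG2, at 112 to 193 TPM (median 147) against 55.1 to 97.7 TPM (median 63.6), a difference of 1.12 (SE 0.078, adjusted p = 6.84e-11). ACAD8, the isobutyryl-CoA dehydrogenase of valine breakdown, showed the opposite order and the lowest difference of the members. It was at 59.2 to 78.7 TPM (median 68.01) in Caco-2 and 17.2 to 25.1 TPM (median 21.5) in HepG2, a difference of -1.64 (SE 0.066, adjusted p = 1.01e-14). ACAD9, which is also an assembly factor of respiratory complex I, was higher in Caco-2 as well, with a difference of -1.01 (SE 0.12, adjusted p = 3.34e-07). The short-chain enzyme ACADS did not pass the test, and neither did ACAD10 and ACAD11. Their differences were -0.047, -0.18 and -0.28, and after median-of-ratios scaling ACADS was higher in HepG2 at 0.18 (adjusted p = 0.0409).

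Of the later mitochondrial steps, 4 of 6 genes were higher in Caco-2 and 1 was higher in HepG2, against 49.8% and 29.2% of all genes. ECHS1 hydrates short and medium enoyl-CoA. It was at 814 to 1043 TPM (median 951) in Caco-2 and 298 to 441 TPM (median 358) in HepG2, with no overlap and a difference of -1.38 (SE 0.065, adjusted p = 1.32e-13). ACAA2, the mitochondrial thiolase that ends the round, was at 409.9 to 501 TPM (median 465) and 152 to 284 TPM (median 201), again with no overlap, and differed by -1.16 (SE 0.06, adjusted p = 5.81e-13). HSD17B10, a short-chain dehydrogenase that also serves isoleucine breakdown, differed by -0.62 (SE 0.055, adjusted p = 3.07e-09), and HADH, the medium- and short-chain dehydrogenase, by -0.35 (SE 0.097, adjusted p = 0.00294). HADH was not called under either of the other scalings. The trifunctional protein, which carries out the later steps for long chains, has HADHA and HADHB as its subunits. HADHA was at 284 to 326 TPM (median 307) in Caco-2 and 302 to 359 TPM (median 321) in HepG2, a difference of 0.10 (SE 0.039, adjusted p = 0.0197), and HADHB was at 188 to 266 TPM (median 212) and 194 to 268 TPM (median 216), a difference of 0.034 (SE 0.054, adjusted p = 0.566). The difference of HADHB was 0.27 after median-of-ratios scaling and 0.17 after quantile normalization, and was called under both.

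HADHA and HADHB lie head to head on human chromosome 2, and their promoter sequence is shown because it lies between the starts of both subunit genes. In RefSeq on GRCh38.p14 the start of HADHA, on the minus strand, is at 26244632 and that of HADHB, on the plus strand, at 26244939, which puts the starts 307 bases apart. The windows from 250 bases before to 50 bases after each start share 194 bases, chr2:26244689-26244882. They are given from 5′ to 3′ on the strand of HADHB, with the GC box on the opposite strand (GGGCGG, read here as its reverse complement) in capitals.
HADHA-HADHB shared window: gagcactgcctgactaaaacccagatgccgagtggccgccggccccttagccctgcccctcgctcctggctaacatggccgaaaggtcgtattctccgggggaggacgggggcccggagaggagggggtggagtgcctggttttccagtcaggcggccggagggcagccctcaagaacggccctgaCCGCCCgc

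A window of this kind was at hand for 23 of the 32 members. These 23 members had 30 windows in all. GC boxes (GGGCGG on either strand) were found in 24 of the 30, from 20 members, against 45.0% of 35116 windows of the same length over all genes. The direct repeat of AGGTCA with 1 base between the copies, the consensus response element of PPAR receptors, was in none of the 30 and in 0.0228% of all windows. A single AGGTCA was in 1 window, of ACAD10, against 13.8% of all windows. CCAAT was in 7 windows, from 6 members, against 34.6%. The oestrogen-related receptor motif TCAAGGTCA, which contains AGGTCA, and the palindromic NRF1 motif were in none, against 0.353% and 1.24%. Motifs as rare as the direct repeat, TCAAGGTCA and the NRF1 motif are seldom found in 30 windows, so their absence there shows nothing. A match describes only the letters of these windows.

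Among the genes that handle double bonds, the isomerases ECI1 and ECI2 went opposite ways. ECI2, an enoyl-CoA isomerase found in peroxisomes and mitochondria, was at 54.9 to 104 TPM (median 69.4) in Caco-2 and 199 to 327 TPM (median 267) in HepG2, with a difference of 1.90 (SE 0.073, adjusted p = 4.79e-15). ECI1, the mitochondrial isomerase, was at 319 to 429.7 TPM (median 339) and 202 to 262 TPM (median 234), with a difference of -0.57 (SE 0.052, adjusted p = 4.24e-09). Neither gene overlapped between the lines. ECH1, a dienoyl-CoA isomerase, was higher in HepG2 by 0.29 (SE 0.077, adjusted p = 0.00181). DECR2, the peroxisomal dienoyl-CoA reductase, was at 73.7 to 122 TPM (median 92.2) in Caco-2 and 54.3 to 74.6 TPM (median 61.6) in HepG2, a difference of -0.55 (SE 0.068, adjusted p = 4.24e-07). DECR1, its mitochondrial counterpart, differed by -0.19 (SE 0.069, adjusted p = 0.0157) and was not called under either of the other scalings.

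In the peroxisomal cycle 3 of 5 genes were higher in HepG2, against 29.2% of all genes. ACOX2 had the highest difference of the members, at 40.6 to 80.5 TPM (median 59.6) in HepG2 against 8.41 to 20.2 TPM (median 15.04) in Caco-2, or 1.93 (SE 0.16, adjusted p = 1.23e-09). ACOX3, an oxidase of branched chains, was at 23.03 to 32.1 TPM (median 27.2) against 15.7 to 21.2 TPM (median 18.3), a difference of 0.56 (SE 0.068, adjusted p = 3.38e-07). HSD17B4, the D-bifunctional protein of the branched-chain route, was at 188 to 465 TPM (median 285) against 144 to 288 TPM (median 189.6) and differed by 0.63 (SE 0.14, adjusted p = 3.31e-04), with overlap. EHHADH, the L-bifunctional protein of straight chains, went the other way, at 27.4 to 42.3 TPM (median 36.1) in HepG2 against 40.1 to 71.2 TPM (median 57.04) in Caco-2, a difference of -0.63 (SE 0.076, adjusted p = 2.87e-07). ACAA1, the peroxisomal thiolase, differed by 0.068 (SE 0.073, adjusted p = 0.397) and did not pass the test. It was called higher in HepG2 at 0.30 after median-of-ratios scaling, 0.20 after quantile normalization and 0.40 within mono-culture with FFAs.

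The subunits of the electron transfer flavoprotein also went opposite ways. ETFB was at 387 to 561 TPM (median 474) in Caco-2 against 1035 to 1190.2 TPM (median 1155) in HepG2, a difference of 1.24 (SE 0.057, adjusted p = 8.27e-14). ETFA, the partner subunit, was at 529.8 to 623 TPM (median 573) against 379 to 476 TPM (median 427), a difference of -0.44 (SE 0.04, adjusted p = 5.22e-09). Within a library the ratio of ETFB to ETFA was thus 0.651 to 0.978 in Caco-2 and 2.30 to 3.11 in HepG2. The same held for the isomerases, whose ratio of ECI2 to ECI1 was 0.130 to 0.313 in Caco-2 and 0.762 to 1.59 in HepG2. A ratio within a library does not depend on a scaling factor for that library. ETFDH differed by 0.26 (SE 0.096, adjusted p = 0.0197). Within single conditions ETFDH was called only in mono-culture with FFAs, at 0.71, and was at -0.056 in co-culture control.

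**Figure D3:**
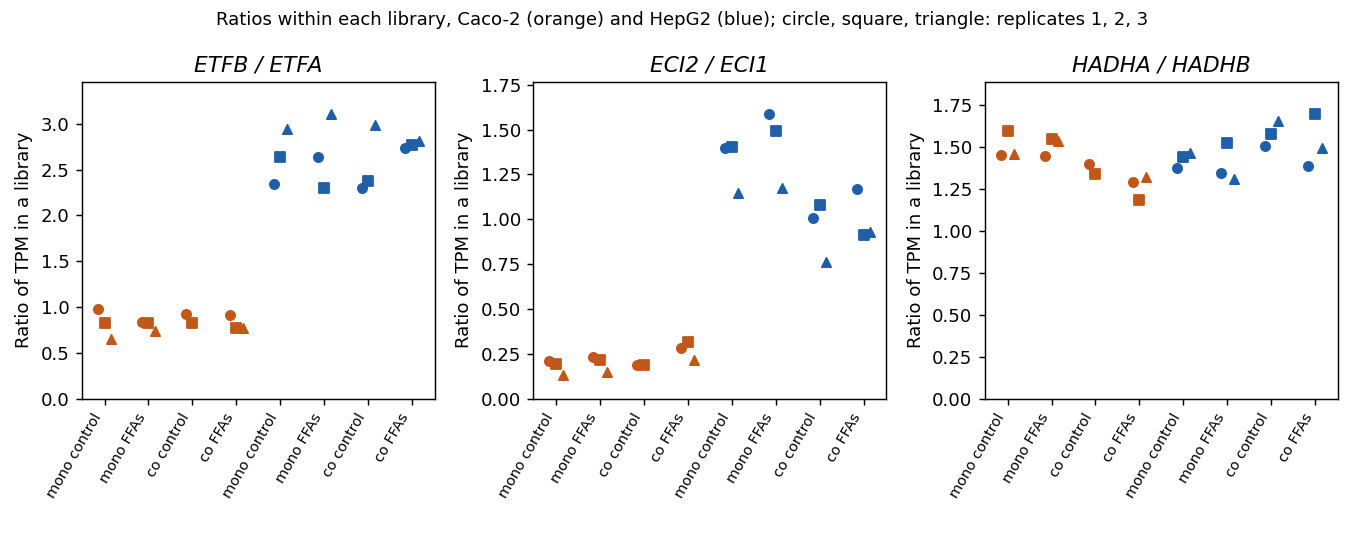
Ratio of TPM of ETFB to ETFA, ECI2 to ECI1 and HADHA to HADHB within each library (circle, square and triangle for replicates 1, 2 and 3), by condition, Caco-2 in orange and HepG2 in blue. The first ratio lies at 0.651 to 0.978 in Caco-2 and 2.30 to 3.11 in HepG2, and the HADHA to HADHB ratio of Caco-2 lies at 1.44 to 1.60 in mono-culture and 1.18 to 1.40 in co-culture.

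The thioesterases release free fatty acids from acyl-CoA. ACOT1, the cytosolic enzyme, was at 39.6 to 58.4 TPM (median 49.4) in Caco-2 and 32.2 to 97.3 TPM (median 65.5) in HepG2, a difference of 0.41 (SE 0.11, adjusted p = 0.00287) with overlap. ACOT2, its mitochondrial paralog, was at 134 to 192 TPM (median 162) and 106 to 222 TPM (median 181), a difference of 0.11 (SE 0.088, adjusted p = 0.277), which became 0.34 and 0.28 under the other scalings and was called under both. ACOT8, the peroxisomal enzyme, was higher in Caco-2, with a difference of -0.45 (SE 0.061, adjusted p = 1.20e-06). ACOT1 (chr14:73537143-73543796) and ACOT2 (chr14:73567620-73575658) are neighbours on the plus strand. Their coding sequences differ at 13 of the 1266 aligned bases, an identity of 99.0%, and 62.7% of the 50-base words of the ACOT1 coding sequence occur unchanged in the ACOT2 transcript. For 100-base words the share was 38.6%. A stretch of 90 aligned coding bases is printed to show how few letters tell the genes apart. It was picked as a stretch of that length with the most differences. It is taken from GENCODE v44 transcripts on GRCh38, at chr14:73537754-73537843 for ACOT1 and chr14:73569759-73569848 for ACOT2, with the 4 bases that differ in capitals.
ACOT1: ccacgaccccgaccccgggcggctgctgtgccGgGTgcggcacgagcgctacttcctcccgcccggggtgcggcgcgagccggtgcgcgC
ACOT2: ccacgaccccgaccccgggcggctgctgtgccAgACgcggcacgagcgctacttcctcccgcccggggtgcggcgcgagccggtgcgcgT
The separate values of ACOT1 and ACOT2 therefore rest on how the authors' software divided reads that match both, and are uncertain.

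The next comparison asked whether 1 mM FFAs changed these genes within a line and culture. No member was called in any of the 4 comparisons or in either line when cultures were averaged. Few genes were called at all: 3 in Caco-2 co-culture (0.0199% of 15081) and none in the other FFAs comparisons by limma. An unadjusted p under 0.05 was found for 287 higher and 106 lower genes in Caco-2 mono-culture, 151 and 168 in HepG2 mono-culture and 156 and 107 in HepG2 co-culture. Averaged over cultures there were 391 and 210 in Caco-2 and 264 and 233 in HepG2. The median difference, FFAs minus control, was 0.0011 over the members and 0.029 over all genes in Caco-2 mono-culture, and 0.061 and -0.0011 in Caco-2 co-culture. In HepG2 it was 0.069 and 0.0036 in mono-culture, and -0.032 and 0.0085 in co-culture. Over the members the differences ran from -0.28 to 0.25 in Caco-2 mono-culture, -0.18 to 0.37 in Caco-2 co-culture, -0.24 to 0.45 in HepG2 mono-culture and -0.37 to 0.47 in HepG2 co-culture.

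SLC25A20 in Caco-2 was the member with an unadjusted p under 0.05 in an FFAs comparison within a line. It was at 44.6, 55.3 and 53.6 TPM in mono-culture control and 50, 50.9 and 66.8 TPM in mono-culture with FFAs. In co-culture it was at 55.05 and 59.5 TPM in control and 83.4, 75.1 and 64.7 TPM with FFAs. The co-culture groups did not overlap, while those of mono-culture did. The difference was 0.37 (SE 0.15, unadjusted p = 0.0353, adjusted p = 1) in co-culture, where 1.29% of genes had an unadjusted p under 0.05 and higher values, and 0.24 (SE 0.10, unadjusted p = 0.037, adjusted p = 0.99) averaged over cultures, where 2.59% did. The HepG2 values of SLC25A20 were 30.8, 30.3 and 17.4 TPM in mono-culture control, 43.99, 30.2 and 32.4 TPM with FFAs, 28.04, 24.2 and 19.2 TPM in co-culture control and 35.9, 22.1 and 24.3 TPM with FFAs. Replicate 1 was highest in each of those 4 groups, and the differences in HepG2 did not pass the test.

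Groups with and without FFAs failed to overlap for few members. In Caco-2 mono-culture HSD17B4 was the 1 member above its control, at 189.6, 192 and 199 TPM with FFAs against 144, 186 and 161 TPM, where 5.08% of genes were. In Caco-2 co-culture 6 members (SLC25A20, HADH, ECI2, HADHB, ACADM and ETFA) lay above, against 8.27% of genes, and 2 (ACAD8 and ECI1) lay below, against 8.91%, with only 2 control libraries. In HepG2 mono-culture ACOT2 was the 1 member above, against 3.1% of genes, and DECR2 the 1 below, against 3.37%. No member was free of overlap in HepG2 co-culture. The response to FFAs was also compared between the lines: ETFDH was the 1 member with an unadjusted p under 0.05, at 0.45 (SE 0.19, unadjusted p = 0.0314, adjusted p = 1) for HepG2 minus Caco-2, where 1.2% of genes were higher at that level, and no member was called.

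The last comparison asked whether sharing the chip with the other line changed the members. In HepG2 cells the values of most members were lower in co-culture, but no member was called in a fit without pairing. Averaged over control and FFAs, 26 of 32 differences were negative, with a median of -0.12 against -0.022 over all genes. An unadjusted p under 0.05 was reached by 12 members that were lower (7.04% of all genes) and by none that was higher (5.51% of all genes), and 8 genes in all were called (0.0561% of 14255). The 12 were ACADS, ACADSB, ACAD10, ACAA2, ECI2, ECH1, DECR1, EHHADH, ACAA1, ETFDH, ACOT1 and ACOT2, at adjusted p-values from 0.130 to 0.297. They came from 6 of the 7 roles. Neither gene of carnitine entry was among them, although both had lower values, with differences of -0.31 and -0.24. Same-numbered HepG2 libraries tended to deviate together from their group means, at correlations of 0.028 to 0.601 over 18 pairs. Differently numbered libraries from different groups correlated at -0.486 to 0.335 over 36 pairs, so the ranges overlapped. When replicate numbers were kept as a block, 11 members were called lower and none higher, against 2.15% of all genes called lower. These were ECI2, ECH1, ACADS, ACAA1, ACAA2, ACOT1, DECR1, ACOT2, ACAD10, CPT2 and ACADSB, at adjusted p-values from 0.0127 for ECH1 to 0.0480 for ACADSB.

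ECI2 separated the HepG2 cultures in full. It was at 307, 327 and 269 TPM in mono-culture control, 321, 322 and 287 TPM in mono-culture with FFAs, 257, 245 and 199 TPM in co-culture control and 266, 237 and 220.3 TPM in co-culture with FFAs. All 6 co-culture libraries were below all 6 mono-culture libraries, the only member of which that was true, where 0.758% of all genes were below in this way. The difference was -0.37 (SE 0.085, adjusted p = 0.13), and 0.0128 was its adjusted p with the replicate block.

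ACADS, ACADSB and ACAD10 were the dehydrogenases among the 12. ACADS was at 80.95, 70.9 and 57.9 TPM in mono-culture control, 76.3, 76.6 and 65.7 TPM with FFAs, 62.4, 59.9 and 44.2 TPM in co-culture control and 55.7, 49.6 and 47.6 TPM with FFAs, a difference of -0.42 (SE 0.11, adjusted p = 0.168). The cultures did not overlap with FFAs and did so without. ACADSB was at 193, 169.7 and 174 TPM in mono-culture control, 137, 156 and 190.2 TPM with FFAs, 135, 118 and 120.0 TPM in co-culture control and 112, 124 and 162 TPM with FFAs, a difference of -0.40 (SE 0.11, adjusted p = 0.168). Here the control libraries did not overlap. ACAD10, an enzyme of uncertain substrate, was at 22.7, 32.1 and 19.8 TPM in mono-culture control, 28.7, 28.7 and 23.1 TPM with FFAs, 20.3, 15.03 and 11.7 TPM in co-culture control and 25.6, 22.7 and 17.2 TPM with FFAs, a difference of -0.47 (SE 0.16, adjusted p = 0.276), and its cultures overlapped in control and with FFAs. The remaining dehydrogenases did not reach an unadjusted p under 0.05, with ACADVL at -0.045 and ACADM at -0.19.

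Thiolases and auxiliary enzymes were lower at similar sizes. ACAA2 was at 225, 213 and 189.8 TPM in mono-culture control, 284, 247 and 221 TPM with FFAs, 189, 185 and 152 TPM in co-culture control and 226, 179 and 179 TPM with FFAs, a difference of -0.31 (SE 0.095, adjusted p = 0.225). Its cultures were apart in control and overlapped with FFAs. ACAA1 was at 272, 262 and 219.7 TPM in mono-culture control, 309.5, 265 and 239 TPM with FFAs, 238, 221 and 178 TPM in co-culture control and 245, 211 and 183 TPM with FFAs, a difference of -0.30 (SE 0.11, adjusted p = 0.286). The mitochondrial and peroxisomal thiolases had differences of nearly the same size, and the cultures of ACAA1 overlapped in both treatments. ECH1 was at 625, 625 and 449 TPM in mono-culture control, 683, 703 and 569 TPM with FFAs, 522, 525 and 385 TPM in co-culture control and 539, 531 and 410.0 TPM with FFAs, a difference of -0.33 (SE 0.12, adjusted p = 0.297). DECR1 was at 163, 156 and 117 TPM in mono-culture control, 143, 146 and 119 TPM with FFAs, 128, 109 and 97.7 TPM in co-culture control and 107, 124 and 97.9 TPM with FFAs, a difference of -0.34 (SE 0.11, adjusted p = 0.235). With FFAs the cultures were apart for ECH1 and overlapped for DECR1, and in control they overlapped for both. Replicate 3 was the lowest library in each of the 4 groups for ECH1, and in 3 of the 4 groups for ACAA2. EHHADH was at 38.3, 40.1 and 33.96 TPM in mono-culture control, 42.3, 39.1 and 40.9 TPM with FFAs, 33.6, 28.8 and 27.4 TPM in co-culture control and 38.3, 28.8 and 32.5 TPM with FFAs, a difference of -0.31 (SE 0.092, adjusted p = 0.213) that was not called with the block. Its cultures did not overlap in control or with FFAs, each compared on its own. ETFDH was at 25.3, 19.3 and 20.1 TPM in mono-culture control, 33.7, 21.9 and 25.7 TPM with FFAs, 17.01, 18.4 and 13.5 TPM in co-culture control and 24.04, 15.4 and 19.4 TPM with FFAs, a difference of -0.41 (SE 0.14, adjusted p = 0.278) that was not called with the block either. The control libraries of ETFDH were apart and those with FFAs overlapped.

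ACOT1 had the lowest difference of the members. It was at 81.8, 87.8 and 62.8 TPM in mono-culture control, 97.3, 83.7 and 85.8 TPM with FFAs, 61.6, 66.4 and 32.2 TPM in co-culture control and 64.6, 50.9 and 42.6 TPM with FFAs, a difference of -0.67 (SE 0.17, adjusted p = 0.165). ACOT2 was at 208, 202 and 165 TPM in mono-culture control, 221, 222 and 209.8 TPM with FFAs, 176, 184 and 106 TPM in co-culture control and 178, 139 and 125 TPM with FFAs, a difference of -0.46 (SE 0.14, adjusted p = 0.225). With FFAs the cultures did not overlap for either gene. The ratio of ACOT2 to ACOT1 was 2.74 to 3.29 in co-culture and 2.27 to 2.65 in mono-culture. These ratios carry the same limit on reads that match both genes.

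**Figure D4:**
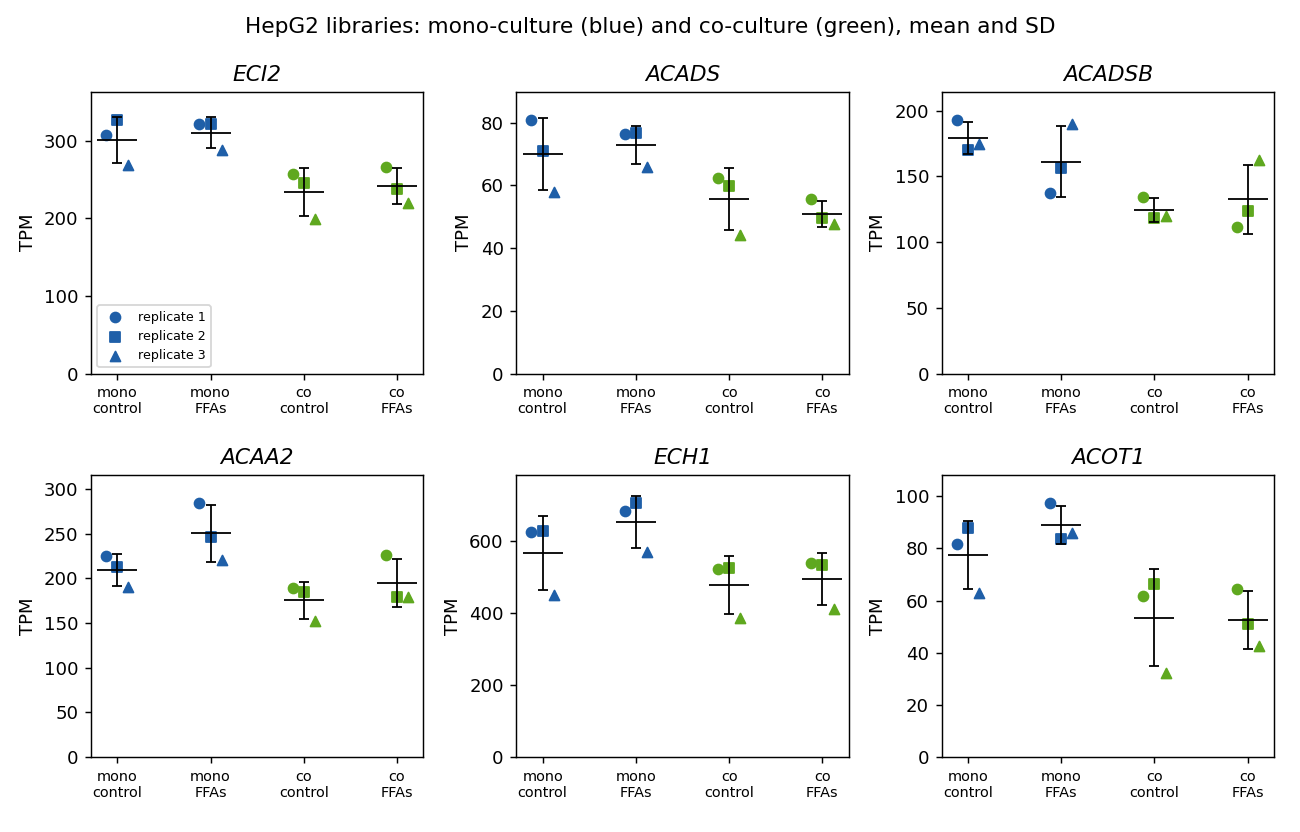
TPM of 6 members in each HepG2 library (circle, square and triangle for replicates 1, 2 and 3), mono-culture in blue and co-culture in green, with the mean as a line and the SD of the 3 libraries of each group as a bar. ECI2 is lower in all co-culture libraries (199 to 266 TPM) than in all mono-culture libraries (269 to 327 TPM), and replicate 3 is low in most groups except for ACADSB.

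Several members did not share this pattern. The electron transfer subunits differed by 0.026 (SE 0.069) for ETFA and 0.029 (SE 0.061) for ETFB, and the trifunctional subunits by 0.029 (SE 0.062) for HADHA and -0.11 (SE 0.082) for HADHB. HSD17B10 and ECI1 had the highest positive values, 0.16 (SE 0.082) and 0.12 (SE 0.07), and neither passed the test. HSD17B4 was at 444, 203 and 188 TPM in mono-culture control, 465, 288 and 309.5 TPM with FFAs, 455, 318 and 262 TPM in co-culture control and 281, 241 and 259 TPM with FFAs. Replicate 1 was the highest library in each group. The difference between cultures was 0.39 in control and -0.41 with FFAs, which averaged to -0.013 (SE 0.22).

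The lower values were seen with and without FFAs. Without FFAs 6 members (ACADSB, ACAD10, ECI2, DECR1, EHHADH and ACOT1) had an unadjusted p under 0.05 and lower values in co-culture, against 4.38% of genes. The groups did not overlap for 5 members that were lower (ACADSB, ETFDH, EHHADH, ACAA2 and ECI2), against 7.6% of genes, and for 2 that were higher (HSD17B10 and HADHA), against 7.25%. With FFAs 9 members (ACADS, ACAA2, ECI2, ECH1, EHHADH, ACAA1, ETFDH, ACOT1 and ACOT2) had an unadjusted p under 0.05 and lower values, against 3.14% of genes. The groups did not overlap for 8 that were lower (ACOT2, ECH1, EHHADH, ACADS, ACOT1, HSD17B4, ECI2 and DECR2), against 5.44%, and for none that was higher. No member was called in either comparison. None was called, or reached an unadjusted p under 0.05, in the test of whether the effect of culture differed with FFAs.

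Other measures moved with these values. Each of the 7 hepatic markers had a negative difference, with a median of -0.20, and their sum was 38659 to 52888 TPM in co-culture against 45424 to 57609 TPM in mono-culture. The intestinal markers without VIL1 summed to 0.48 to 3.45 TPM in co-culture and 0.16 to 1.72 TPM in mono-culture, with 2 to 4 of the 7 markers at 0, which is near 0 in both. In the replicate 3 libraries of HepG2, 27 to 30 of 32 members lay below their group mean, and 21588 to 22416 genes were above 0 TPM, against 19259 to 20873 in the other replicates. Without the replicate 3 libraries of all 4 groups, 13 members were lower and 1 was higher at an unadjusted p under 0.05 (8.97% and 5.58% of all genes), none was called, and the median over the members was -0.17 against -0.044 over all genes. With the replicate block none was called either over these 8 libraries, with 14 members lower and 1 higher at an unadjusted p under 0.05 (9.54% and 5.94% of all genes). The part of the hepatic markers in the result was not tested.

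In Caco-2 cells co-culture went with higher values for a few members. Averaged over treatments 18 differences were positive and 14 negative, with a median of 0.030 against 0.028 over all genes, and no gene of 15081 was called by limma, where 915 were higher and 663 lower at an unadjusted p under 0.05. An unadjusted p under 0.05 was reached by 4 members that were higher (SLC25A20, ACADSB, ECI2 and ACAA1), against 6.07% of all genes, and by ACAD9, which was lower, against 4.4%. ACADSB was at 67.6, 63.6 and 61.1 TPM in mono-culture control, 55.1, 61.96 and 55.9 TPM with FFAs, 69.8 and 74.3 TPM in co-culture control and 61.3, 97.7 and 72.4 TPM with FFAs, a difference of 0.28 (SE 0.11, unadjusted p = 0.0234, adjusted p = 0.414). ECI2 was at 66.7, 65.8 and 56.1 TPM in mono-culture control, 74.7, 71.4 and 54.9 TPM with FFAs, 69.4 and 68.2 TPM in co-culture control and 95.5, 104 and 70.5 TPM with FFAs, a difference of 0.27 (SE 0.11, unadjusted p = 0.0364, adjusted p = 0.447). For both genes 1 library, replicate 2 of co-culture with FFAs, was the highest of the 11. ACAA1 was at 212, 227 and 184 TPM in mono-culture control, 202, 209.5 and 202 TPM with FFAs, 246 and 236 TPM in co-culture control and 233, 297 and 212 TPM with FFAs, a difference of 0.24 (SE 0.089, unadjusted p = 0.0205, adjusted p = 0.4). Its co-culture values were above those of mono-culture without overlap in control and with FFAs. SLC25A20, whose values are given above, differed by 0.29 (SE 0.10, unadjusted p = 0.0167, adjusted p = 0.394). ACAD9 was at 68.3, 67.5 and 56.4 TPM in mono-culture control, 66.4, 68.3 and 60.9 TPM with FFAs, 55.4 and 52.6 TPM in co-culture control and 60.1, 59.1 and 53.03 TPM with FFAs, a difference of -0.21 (SE 0.074, unadjusted p = 0.0165, adjusted p = 0.394).

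Without FFAs no member of Caco-2 reached an unadjusted p under 0.05 between cultures. The 2 co-culture libraries lay above all 3 mono-culture libraries for 5 members (ACAD8, ACADSB, ACAA1, ACAD10 and ECI2), against 15.1% of genes, and below for 3 (ACAD9, HADHA and ETFA), against 7.99%. With FFAs SLC25A20, ACADSB, ECI2 and HADHB were higher at an unadjusted p under 0.05, against 2.96% of genes, at adjusted p-values from 0.790 to 0.813. HADHB was at 226, 205 and 188 TPM in mono-culture and 239, 266 and 215 TPM in co-culture with FFAs, and at 212, 204 and 203 TPM and 205 and 214 TPM without. ACAA1 was the 1 member above without overlap, against 4.69% of genes, and ACAD9 the 1 below, against 4.63%. The ratio of HADHA to HADHB in Caco-2 was 1.44 to 1.60 in mono-culture and 1.18 to 1.40 in co-culture. It was picked out after its values were seen and was not tested. The hepatic markers of the other line were also compared between the Caco-2 cultures. Without FFAs 4 of the 7 had a positive difference and 3 a negative one, with a median of 0.035. With FFAs 7 of 7 were positive, with a median of 0.49, and averaged over treatments 6 of 7 were, with a median of 0.19. None of the markers reached an unadjusted p under 0.05. Their sum was 3701 to 4943 TPM in co-culture and 3197 to 5029 TPM in mono-culture, with none of them at 0. The intestinal markers without VIL1 summed to 469 to 606 TPM and 454 to 538 TPM. The part of these markers in the result was not tested.

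**Figure D5:**
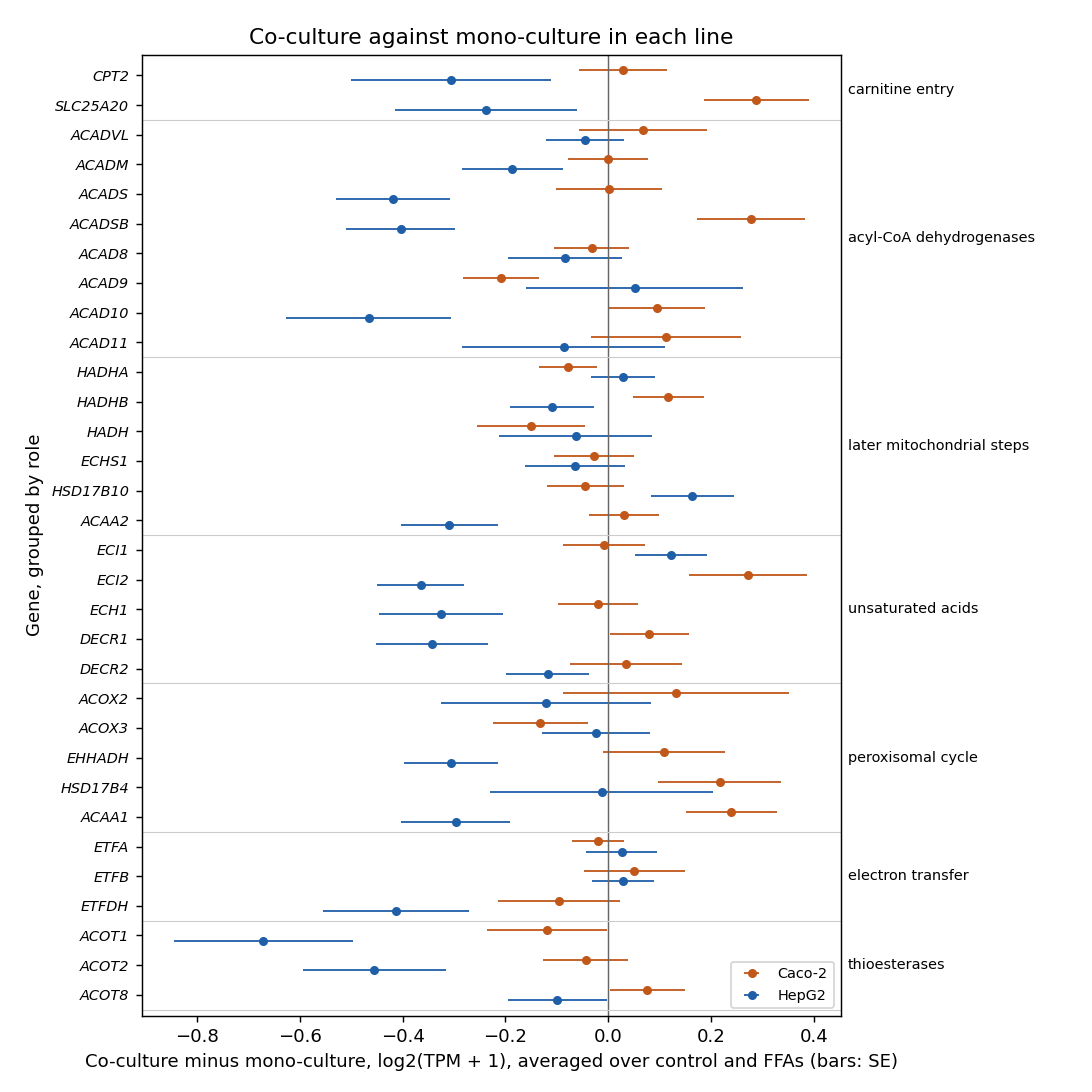
Difference between co-culture and mono-culture in log2(TPM + 1), averaged over control and FFAs, for each member in Caco-2 (orange) and HepG2 (blue), with bars for the SE. HepG2 values lie below 0 for 26 of 32 members, down to -0.67 for ACOT1, and Caco-2 values lie above 0 for 18 of 32, up to 0.29 for SLC25A20; no difference shown was called without pairing.

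The effect of co-culture was compared between the lines directly. The difference of effects, HepG2 minus Caco-2, was negative for 25 of 32 members, with a median of -0.23 against -0.055 over all genes. No member was called, where 0.533% of all genes were. Of the 12 members with an unadjusted p under 0.05 all were negative, where 8.74% of all genes were negative at that level. They were SLC25A20, ACADS, ACADSB, ACAD10, HADHB, ACAA2, ECI2, DECR1, EHHADH, ACAA1, ACOT1 and ACOT2. ECI2 was at -0.64 (SE 0.15, adjusted p = 0.055) and ACADSB at -0.68 (SE 0.16, adjusted p = 0.055), both just short of the threshold, and ACAA1 at -0.54 (SE 0.15, adjusted p = 0.102). These 3 genes were called with the replicate block, where 1.03% of all genes were called negative, although in Caco-2 same-numbered libraries did not all deviate together. In this fit the block gave each replicate number a single effect for both lines, and the labels do not say that same-numbered libraries of different lines share anything. The median deviation of the members in replicate 3 libraries was -0.20 to -0.13 in HepG2 and -0.082 to 0.0038 in Caco-2. Leaving out 1 library at a time gave 0 to 2 called members. In 1 case, without replicate 3 of HepG2 mono-culture control, 2 were called, and 1 was called without replicate 1 or replicate 3 of Caco-2 co-culture with FFAs, replicate 3 of HepG2 co-culture with FFAs or replicate 1 of HepG2 mono-culture with FFAs.

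The study's own criteria, a one-way analysis of variance over the 4 groups of a line at an unadjusted p under 0.05 with a difference of at least the log2 of 1.2 between any pair of groups, were met by 1 member in Caco-2 (SLC25A20) and 5 in HepG2 (ACADSB, EHHADH, ACADS, ACAA2 and ECI2). Of the 31100 genes above 0 TPM in some Caco-2 library 3.08% met them, and of the 29942 in HepG2 3.56%. These shares include genes that averaged under 1 TPM, which the other tests left out and among which no member was. They may therefore be lower than the shares among genes at the levels of the members. No member met them after Benjamini-Hochberg adjustment.

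Genes around the pathway were followed in the same fits. In carnitine entry and its control, CPT1A, which makes acylcarnitines at the outer mitochondrial membrane, was at 4.71, 5.87 and 5.97 TPM in Caco-2 mono-culture control and 9.10, 8.34 and 8.01 TPM with FFAs. In co-culture it was at 4.24 and 7.48 TPM and 11.5, 9.79 and 7.61 TPM. Every Caco-2 library with FFAs was above every control library of its line, where 0.285% of all genes were above in this way. The CPT1A difference averaged over cultures was 0.60 (SE 0.15, unadjusted p = 0.00208, adjusted p = 0.99) and was not called. In HepG2 CPT1A was at 4.66 to 8.43 TPM (median 5.92), with a difference of 0.034 (SE 0.15, unadjusted p = 0.825, adjusted p = 1). It was the 1 gene of 7 in this list at an unadjusted p under 0.05 in Caco-2 with FFAs, and none was in HepG2. PDK4, a kinase that restrains pyruvate oxidation and is known to respond to fatty acids, was at 0.75, 0.90 and 0.76 TPM in Caco-2 mono-culture control, 0.82, 1.18 and 3.56 TPM with FFAs, 0.51 and 0.73 TPM in co-culture control and 2.38, 5.14 and 3.49 TPM with FFAs. The difference was 1.02 (SE 0.25, unadjusted p = 0.00173, adjusted p = 0.99), and in HepG2 the gene was at most 0.33 TPM and below the filter. All Caco-2 control values of PDK4 were under 1 TPM, so it passed the filter only through the groups with FFAs. Its p-value is therefore no support for a response, and the values are near the floor. With that limit, PDK4 was the 1 of 8 tested regulators with higher values at an unadjusted p under 0.05, and PPARG the 1 with lower values.

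Lists around the pathway also differed between the lines. In the list of peroxisomal import, racemase and alpha-oxidation, AMACR, the racemase of branched chains, was at 356 to 675 TPM (median 561) in Caco-2 and 31.3 to 63.2 TPM (median 44.5) in HepG2. Of 10 genes tested 4 were called higher in HepG2 and 6 in Caco-2. Calls of higher in Caco-2 were made for 5 of 7 genes of carnitine entry, 11 of 15 of branched-chain amino acid breakdown, 5 of 9 regulators and 6 of 6 other thioesterases, and calls of higher in HepG2 for 1, 3, 2 and 0. Of all genes tested in this comparison, 49.8% were called higher in Caco-2 and 29.2% higher in HepG2. Calls for most genes of a list, more of them higher in Caco-2, were thus also seen over all genes.

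In HepG2 co-culture none of these genes was called in the fit without pairing, and their results with the replicate block are not given. AMACR had the lowest adjusted p, at -0.54 (SE 0.10, adjusted p = 0.0978), followed by ALDH6A1, the methylmalonate semialdehyde dehydrogenase of valine breakdown, at -0.64 (SE 0.13, adjusted p = 0.115). An unadjusted p under 0.05 and lower values were found for 1 of 7 genes of carnitine entry (CRAT), 2 of 9 peroxisomal genes (AMACR and PHYH), 3 of 15 branched-chain genes (ALDH6A1, BCAT2 and AUH), 1 of 8 regulators (SIRT3) and 0 of 4 other thioesterases. CRAT, the carnitine acetyltransferase, differed by -0.37 (SE 0.085). None of these genes had higher values at that level, where 7.04% of all genes were lower and 5.51% higher. In Caco-2 co-culture the counts of higher and lower genes at that level were 1 and 0 of 7 for carnitine entry (CROT), 2 and 0 of 10 for peroxisomal genes, 3 and 1 of 15 for branched-chain genes, 1 and 1 of 8 for regulators and 1 and 1 of 6 for other thioesterases. Of all genes, 6.07% were higher and 4.4% lower at that level. CROT, the peroxisomal carnitine octanoyltransferase, differed by 0.39 (SE 0.12). With FFAs averaged over cultures, ACOT7 was the 1 gene of the peroxisomal, branched-chain and thioesterase lists at that level in Caco-2, at 0.30 (SE 0.062, unadjusted p = 4.67e-04, adjusted p = 0.705), and no gene of those lists was in HepG2.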

How the data were processed

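The members and the other gene lists were chosen with earlier results of these data known. The deposited values are TPM, calculated by the authors with 1 table per library (23 libraries, no table or column left out). Per the submitters' processing notes and the study's methods, Bowtie2 2.1.0 was used to discard reads from rRNA, tRNA and mitochondrial sequences, STAR 2.7.1a to align the rest to GRCh38 with the Ensembl 98 annotation, and RSEM 1.3.0 to compute TPM. TPM hold no counts, so the depth of a library is unknown and no counting error is given, and RSEM's division of reads between paralogs is part of the values.

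Groups and replicate numbers came from the labels. The study's methods state that its mRNA-seq came from independent experiments and biological replicates, but the labels do not say which libraries shared one, so part of the spread between libraries that p-values measure may be technical. Of 253 pairs of libraries none was identical. Values were analysed as log2(TPM + 1) in R 4.3.3 with limma 3.58.1 (eBayes with a trend), with the 4 groups of a line, or all 8 groups for comparisons of lines, in one fit without covariates. Genes that averaged under 1 TPM in all groups of a fit were left out. Contrasts were the line difference, FFAs against control, co-culture against mono-culture, their averages and their interactions. Replicate numbers were taken as pairs for co-culture against mono-culture in HepG2, where deviations of same-numbered libraries from their group means correlated at 0.109 to 0.601 over 6 pairs (across genes, which are not independent), and not for Caco-2, where the lowest was -0.0926. Over all HepG2 groups, 7 of 36 pairs of differently numbered libraries also correlated above 0.1, at up to 0.335, so the numbers may not mark true pairs. The criteria of a one-way analysis of variance were applied to every gene above 0 TPM in a line. Alternatives were a pseudocount of 0.1, a filter of 5 TPM or none, median-of-ratios scaling, quantile normalization, limma without a trend, only the groups compared, the replicate block, the line difference within each condition and each library left out. Runs without the HepG2 replicate 3 libraries, with and without the block, were added after seeing the data. The fits were tested on simulated data. All members are named. Values of each library are given for members with an unadjusted p under 0.05 within a line, and lowest, median and highest values where a line is taken as a whole. Of the other lists, CPT1A, PDK4 and up to 3 genes per list with the smallest p are named. Some items of these lists are not reported here. Promoter windows came from RefSeq on GRCh38.p14, and coding sequences and gene positions from GENCODE v44 on GRCh38. Python 3.11.15 with numpy 2.4.6, pandas 2.3.3, scipy 1.17.1, biopython 1.88 and matplotlib 3.10.9 was used for tables and figures.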

Additional observations from a re-analysis of the deposited data

How the results depend on the processing

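Over the alternatives, 449 of 476 counts of members stayed within 1.5 times the reported count, 369 of 375 medians over the members moved by less than 1 SD between libraries, and 2181 of 2263 values of single members kept their direction and their side of the threshold. For most of these counts the reported count was 0 called members, and a count that stayed at 0 was taken as kept. In the line difference, the median over the members was 0.11 after median-of-ratios scaling and 0.13 after quantile normalization, and within single conditions it was 0.079 in mono-culture control, 0.10 in mono-culture with FFAs and -0.30 in co-culture with FFAs, where 7 members were called higher in HepG2. The sign turned for genes near 0. ACADS came to 0.12 in mono-culture control, 0.21 in mono-culture with FFAs, 0.18 after median-of-ratios scaling and 0.17 after quantile normalization, and ACAD10 to 0.070, 0.13, 0.041 and 0.099 under the same settings. DECR1 came to 0.088 in mono-culture control and 0.037 after median-of-ratios scaling. In co-culture control ACAA1 came to -0.19, ETFDH to -0.056 and ACOT2 to -0.12, and in co-culture with FFAs HADHB came to -0.16, ACAA1 to -0.21 and ACOT2 to -0.079. The cause was not tested.

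With the replicate block, 11 members were called in HepG2 co-culture and 3 in the comparison of co-culture effects between lines. In comparisons of lines the block gave each replicate number a single effect for both lines. The criteria of the analysis of variance with the block were met by 2 members in Caco-2 (ECI2 and ACAD9, against 4.42%) and 13 in HepG2 (against 5.55%). These shares are over all genes above 0 TPM, among them genes near 0. The block kept 12 calls of higher in HepG2 and gave 14 of higher in Caco-2 in the line difference, and in every other comparison of cultures or FFAs the count of called members stayed at 0. In Caco-2 deviations of same-numbered libraries had a median correlation of 0.088 over 15 pairs, with 7 over 0.1, so they did not all deviate together and the block there rests on a shared number. With a filter of 5 TPM the comparison of co-culture effects between lines called 2 members, and leaving out 1 library gave 0 to 2. After Benjamini-Hochberg adjustment the criteria of the analysis of variance were met by 0 members in either line, and after median-of-ratios scaling by 3 in HepG2. Leaving out 1 library gave 0 to 3 members in Caco-2 and 2 to 7 in HepG2, with the fewest in HepG2 without replicate 2 of mono-culture control or replicate 1 of mono-culture with FFAs. For HepG2 co-culture without FFAs, leaving out 1 library moved the median over the members between -0.33 and -0.011. Leaving out a Caco-2 co-culture control library left 1 library in that group, which was taken to vary like the others. The depth is unknown, so no limit that it sets can be given.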

Other observations

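The replicate 3 libraries of HepG2 held low values for these genes in all 4 groups. The median deviation of the members from their group mean was -0.18 in mono-culture control, -0.15 in mono-culture with FFAs, -0.20 in co-culture control and -0.13 in co-culture with FFAs on the log2(TPM + 1) scale, while that of all genes lay between -0.045 and 0.0077. ACADSB stood against this in both groups with FFAs, where replicate 3 was the highest library. HSD17B4 in HepG2 was highest in replicate 1 in all 4 groups. In Caco-2, replicate 2 of co-culture with FFAs had 7 of 32 members below its group mean and a median deviation of 0.13, against 0.0090 over all genes.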
